A study of Mus musculus with 4 samples.

Results

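The subject is the family of heterochromatin protein 1 (HP1) genes in mouse, Cbx5, Cbx1 and Cbx3, seen through the RNA bound by the helicase MOV10. RNA was captured by eCLIP, in which proteins are crosslinked to RNA, 1 protein is immunoprecipitated with its RNA fragments, and the fragments are sequenced beside an input. The 4 libraries were 2 MOV10 eCLIP immunoprecipitates, made with an anti-MOV10 antibody, and 2 MOV10 inputs. All came from N2A cells, a mouse neuroblastoma line; the labels name no genetic change, agent, time or dose and do not say whether the replicates were separate cultures. The comparison asks which stretches of RNA the immunoprecipitates hold in excess of the inputs. The data are 1 list of 12236 peaks that joins both replicates, so each peak has 1 value over all libraries, with no standard deviation, and the depth and the abundance of each transcript in the input are unknown.

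The members were chosen by the peak list itself, as the peaks whose midpoint lay in the RefSeq span of 1 of the 3 genes on GRCm38. There were 110 such peaks of 12236 (0.899%). All 110 were in Cbx5, and Cbx1 and Cbx3 had 0 each. Of 21900 coding genes, 1686 (7.7%) had a peak that lay in their span alone, and nothing is read from the members' count against that share, since the same list chose them. Each value below is therefore a description, with no test. The value columns of the list are used, the authors' −log10 p and the authors' log2 fold enrichment, which sets immunoprecipitate over input, both identified from their ranges.

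Cbx5 encodes HP1α, Cbx1 encodes HP1β and Cbx3 encodes HP1γ. Each is a small protein with a chromodomain, which binds methylated histone H3 tails, and a chromoshadow domain, through which HP1 proteins dimerise and recruit partners. HP1α and HP1β are known from the heterochromatin around centromeres, and HP1γ also from active genes. MOV10 associates with Argonaute proteins, which act on mRNAs mainly through sites in the 3′ untranslated region.

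Cbx5 lies on chromosome 15 from 103191546 to 103239904, a span of 48359 nt on the minus strand, so its 3′ end is at the lower coordinate. Its promoter end faces Hnrnpa1, the gene of a nuclear RNA-binding protein on the plus strand, across a gap of 38 nt. The promoter windows used (RefSeq, GRCm38.p6) give 2 starts for Cbx5, at 103239852 and, inside the gene, at 103215352. The annotated span reaches past the outer of these, to 103239904, so the windows need not hold every start. The gap is shown because it parts Cbx5 from the facing transcript, whose span holds the nearest peaks outside Cbx5, and the 250 bases before the inner start because the single Cbx5 peak outside the 3′ region lay downstream of it. Both are on the minus strand, at chr15:103239905-103239942 and chr15:103215353-103215602, and capitals mark CG, a motif that reads the same on both strands.
Cbx5 to Hnrnpa1 gap: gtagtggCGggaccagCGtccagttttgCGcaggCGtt
Cbx5 inner start: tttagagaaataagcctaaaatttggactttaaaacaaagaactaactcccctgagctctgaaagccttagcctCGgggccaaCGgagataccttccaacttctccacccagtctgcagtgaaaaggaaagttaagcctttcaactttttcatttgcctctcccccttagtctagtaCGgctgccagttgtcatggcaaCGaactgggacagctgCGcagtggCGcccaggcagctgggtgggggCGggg
The 300-base window of the table at the outer start held 29 CG, and 12.9% of the table's 32851 windows held as many or more. The window at the inner start held 8, and 48.7% of windows held as many or more, while 94.6% held at least 1. No peak of the list touched either window, or those of Cbx1 and Cbx3.

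Cbx5 had more peaks than any other of the 1686 coding genes with peaks. It held 110, against 101 in Ttyh3, a gene of the tweety family of membrane proteins, and 78 in Elavl1, which encodes the RNA-binding protein HuR. Many Cbx5 peaks were short and touched a neighbour, with a median width of 24 nt against 74 nt over the whole list. Of the 110 peaks, 43 (39.1%) were shorter than 20 nt, against 6.19% of the whole list. With touching peaks joined, Cbx5 held 53 separate intervals, followed by the homeobox gene Hmbox1 with 36 and the Hippo pathway gene Tead1 with 34. By bases covered the order was different. Cbx5 peaks covered 3516 nt and ranked 4, after Hmbox1 with 4386 nt, Ttyh3 with 3639 nt and the coregulator gene Tcf20 with 3629 nt. Counting only peaks of at least 20 nt, Cbx5 had 67 and came after Ttyh3 with 74.

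Enrichment in Cbx5 was high in most of its peaks and not at the strongest alone. The median log2 fold enrichment of its peaks was 5.24, or 37.9-fold on the linear scale (interquartile range 5.01 to 5.54 in log2), against 3.71 and 13.1-fold over all peaks of the list. Among the 51 coding genes with at least 30 peaks, this was the highest median, just above Elavl1 with 5.20 and Tcf20 with 5.10, and the middle gene of the 51 had 4.18. The difference from Elavl1 is small beside the spread of peaks within Cbx5. In Cbx5, 83 peaks (75.5%) reached a log2 fold enrichment of 5, against 725 (5.93%) of the list. Cbx5 with 0.899% of the peaks thus held 11.4% of those at or above that level. Touching peaks count separately in these shares. The medians of Elavl1 and Tcf20 were also above 5, so such peaks were common in those genes too. By its strongest peak alone, at 6.48, Cbx5 ranked 3 behind Elavl1 with 6.93 and Tead1 with 6.62.

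**Figure D1:**
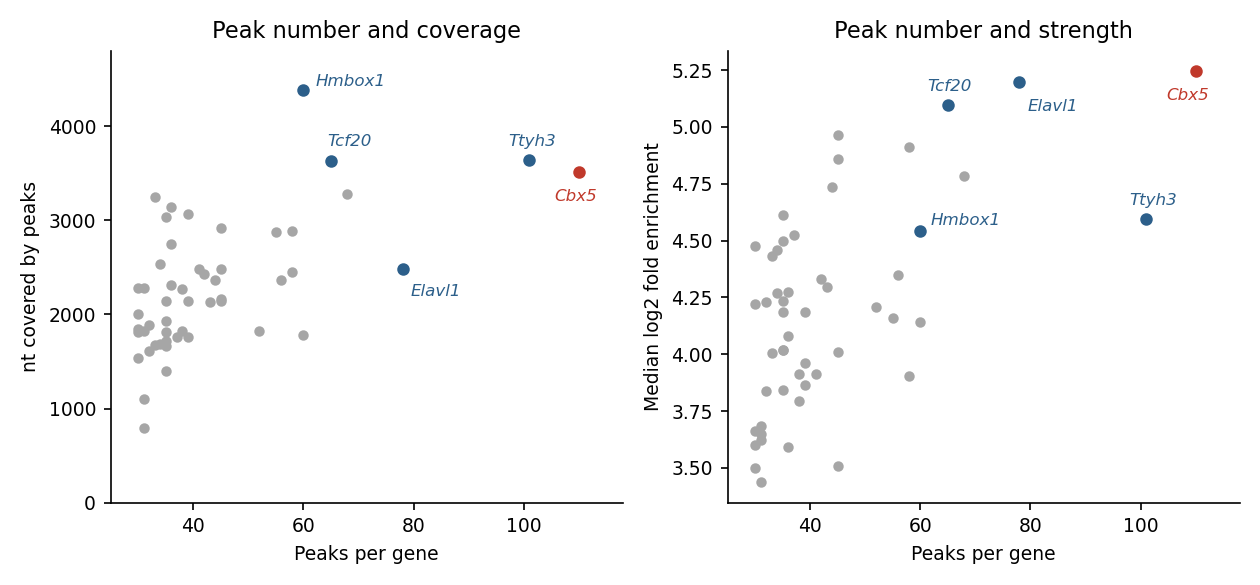
Each point is 1 of the 51 coding genes with at least 30 peaks, placed by its number of peaks and, on the left, by the nt its peaks cover or, on the right, by the median log2 fold enrichment of its peaks. Cbx5 (red) lies farthest right with 110 peaks and 3516 nt covered, below Hmbox1, Ttyh3 and Tcf20 in coverage, and highest in median enrichment at 5.24.

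All but 1 of the Cbx5 peaks lay in a stretch next to the 3′ end. The 109 peaks there formed 52 intervals between 187 and 7811 nt from the annotated end. This stretch of 7625 nt is 15.8% of the gene span, and peaks covered 3358 nt (44.0%) of it. All were on the minus strand, that of Cbx5. Of all 110 peaks, 67 (60.9%) lay within 5 kb of the end and 43 beyond it. The exact 95% binomial interval of this share, 51.1 to 70.1, takes peaks as independent although they touch. It serves only as a yardstick for other settings below and measures no spread between libraries. The table used gives no exons, so the boundary between the coding sequence and the 3′ untranslated region was not placed on this stretch.

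Peaks were not spread evenly over the stretch. Counting peaks with under 100 nt between them as 1 cluster, a distance picked once the values were known, the 110 peaks formed 13 clusters, 12 of them in the 3′ stretch. The 8 clusters with at least 5 peaks held 102 peaks. The most crowded, with 24 peaks, lay 6415 to 7277 nt from the end, and 2 more held 19 peaks each, at 479 to 1332 nt and at 4815 to 5597 nt. Between them were long runs with no peak, of 817 nt from 5597 to 6415 nt, of 629 nt from 3355 to 3985 nt and of 462 nt from 7277 to 7740 nt. In bins of 500 nt, coverage was highest at 500 to 1000 nt from the end, where 355 nt (71.0%) were covered, and was only 15 nt at 3500 to 4000 nt. No peak lay between 7811 nt and the single inner peak.

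**Figure D2:**
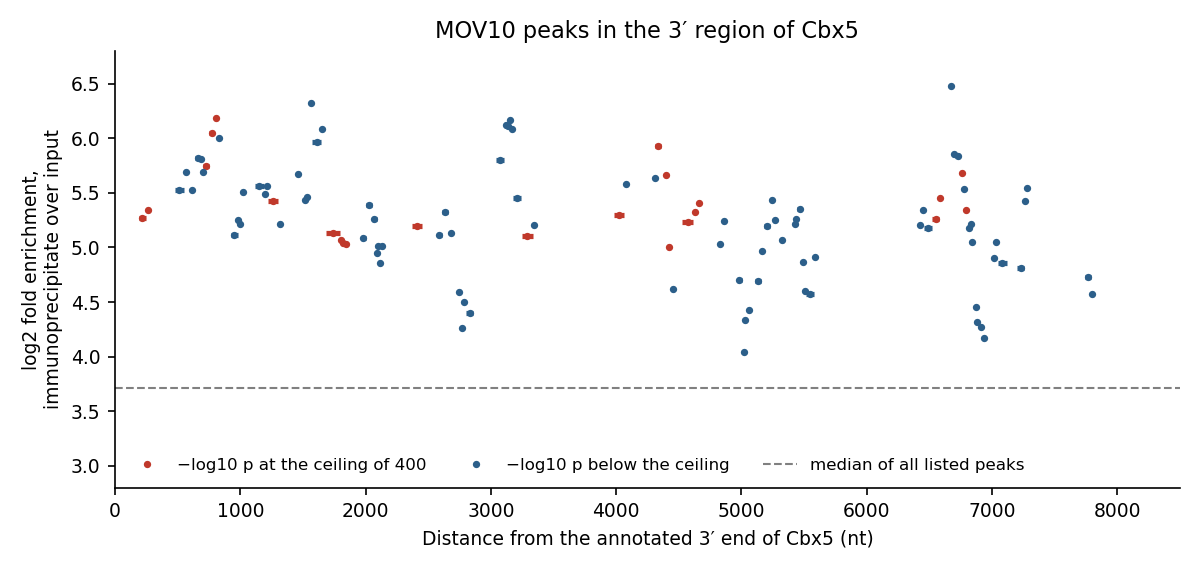
Each mark is 1 of the 109 Cbx5 peaks of the 3′ stretch, drawn over its own width at its distance from the annotated 3′ end and at its log2 fold enrichment. Red marks have a −log10 p at the ceiling of 400, blue marks a lower one, and the dashed line is the median of all listed peaks, 3.71. Every mark lies above the line, between 4.04 and 6.48, and the marks form separate hills with empty stretches between them.

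At a limit of 6, which was not varied, the strongest enrichment was found at 4 separate sites rather than at 1. In all, 9 peaks, joined where they lay within 200 nt, reached a log2 fold enrichment of 6. The site nearest the end, at 103192299 to 103192366, held 2 peaks of 6.05 and 6.18, both at the ceiling of the −log10 p. A second, at 103193092 to 103193200, held peaks of 6.08 and 6.32 with 1 of 5.97 between them. Another, at 103194651 to 103194717, held 4 touching peaks of 6.08 to 6.17, among them the highest −log10 p of Cbx5 below the ceiling, 141. The strongest peak of the gene, 6.48 or 89.0-fold, was the single peak of its site, at 103198220 to 103198226, touched a peak of 5.86, was 7 nt wide and had a −log10 p of 38.8. These sites lay 753 to 820, 1546 to 1654, 3105 to 3171 and 6674 to 6680 nt from the 3′ end. A peak apart from them, at 103195858 to 103195903, reached 5.93, so a slightly lower limit would add a site.

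Touching peaks had similar strength. Over the 57 pairs of touching Cbx5 peaks, the log2 fold enrichment differed by a median of 0.15 and by at most 0.66. No such difference was computed for peaks that lie apart, so whether touching peaks are more alike than others was not tested. From the strongest peak away from the 3′ end, 13 peaks in a row, at 6677 to 6936 nt, ended at 4.17, and 11 of the 12 steps were downward. This run starts at the highest value of the gene and stops at a low one, so mostly downward steps are built into its ends. Beyond it, the peaks left in the same cluster were higher again, at 4.82 to 5.54. Toward the 3′ end from the strongest peak the list held a gap of 83 nt. Along the whole stretch, by kb from the end, the median was 5.69 in the first kb, 5.46 in the next, 5.01 at 2 to 3 kb, 5.94 at 3 to 4 kb, 5.29 at 4 to 5 kb, 4.94 at 5 to 6 kb, 5.24 at 6 to 7 kb and 4.88 at 7 to 8 kb. The medians did not fall steadily with distance, and the highest was at 3 to 4 kb. Across the 109 peaks, distance and log2 fold enrichment had a Spearman rho of −0.39 (Pearson r −0.35). The peaks share the transcript and the libraries and many touch, so this describes the gene and is no test.

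The −log10 p of Cbx5 peaks was also high, with a median of 65.0 against 10.2 over the whole list. Among the 51 coding genes with at least 30 peaks this median ranked 3, after Dpysl3 with 70.2 and Ttyh3 with 65.1. Of the 84 peaks at the ceiling of 400, Cbx5 held 23 (27.4%), of which 19 lay within 5 kb of the end. Ttyh3 held 20 of the 84 and Dpysl3 11. Peaks at the ceiling were somewhat wider than the other 87, with medians of 34 and 21 nt, while their median log2 fold enrichments were 5.32 and 5.21. Width and log2 fold enrichment were close to unrelated over the 109 peaks of the 3′ stretch (Spearman rho 0.062), whereas width and −log10 p had a rho of 0.54 (Pearson r 0.42) over the 86 of them below the ceiling. Over the same 86, log2 fold enrichment and −log10 p had a rho of 0.45 (Pearson r 0.51).

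The single peak inside the gene differed from the others in place and strength. It lay at 103213096 to 103213253, 21628.5 nt from the 3′ end by its midpoint, and was the widest of Cbx5 at 158 nt. Its log2 fold enrichment of 3.49 (11.2-fold) and its −log10 p of 20.9 were the lowest of the gene, and the next lowest peak had 4.04. It began 2099 nt downstream of the inner start, and no peak lay upstream of that start, between the inner and the outer start. Whether the peak is exonic or intronic was not determined.

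To name transcripts with a like arrangement, the share of covered nt in each bin of 500 nt over the last 10 kb was compared. Beside Cbx5 stood the 45 other coding genes with at least 30 peaks, a span of at least 15 kb and a peak in that stretch. Genes with no peak there, such as Tcf20, were not among the 45. The measure is the sum of the smaller share in each of 20 bins, which is 1 for equal profiles. The median gene overlapped with Cbx5 by 0.54. Tmod2, the gene of an actin-capping tropomodulin, was most like it with 0.77, followed by Tead1 with 0.72 and Usp31, a ubiquitin-specific protease gene, with 0.69. Their peaks were weaker in the median than those of Cbx5, at 4.33 in Tmod2, 4.78 in Tead1 and 3.91 in Usp31, and 0 of them reached the ceiling of the −log10 p. The share of peaks within 5 kb was 64.3% in Tmod2, 69.1% in Tead1 and 73.2% in Usp31, beside 60.9% in Cbx5.

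**Figure D3:**
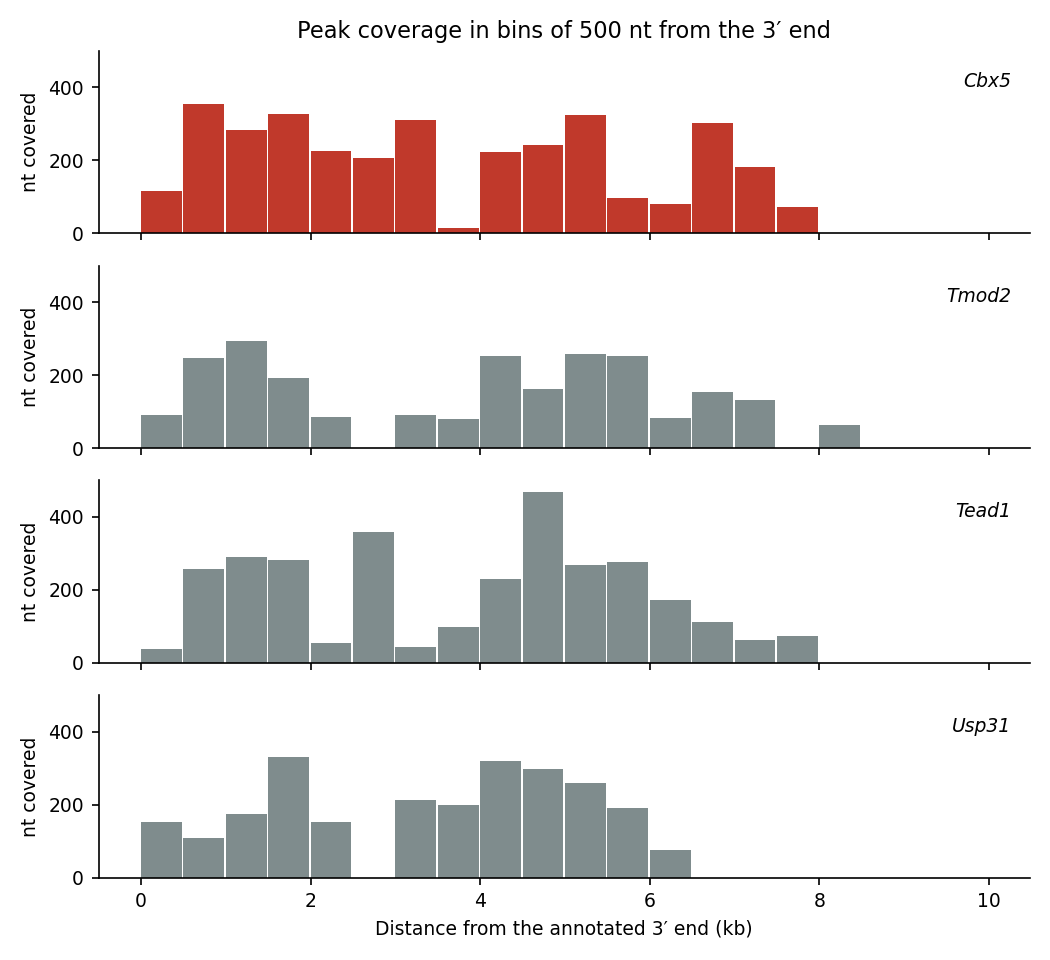
Bars give the nt covered by peaks in bins of 500 nt from the annotated 3′ end, up to 10 kb, in Cbx5 (red) and in the 3 genes with the most similar profile (grey). In Cbx5 the bars are highest at 500 to 1000 nt with 355 nt, nearly vanish at 3500 to 4000 nt with 15 nt, and end before 8 kb.

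Cbx1 and Cbx3 had no listed peak. Cbx1 lies on chromosome 11 (96788680 to 96808982, plus strand), and the closest peak was 8909 nt past its 3′ end, on the minus strand in Nfe2l1, a transcription factor gene, with a log2 fold enrichment of 3.06. Cbx3 lies on chromosome 6 (51470154 to 51483704, plus strand), and the nearest listed peaks on that chromosome were 2899750 nt and 3017630 nt away on either side. The 6 pseudogenes annotated under the name of Cbx3, to which reads of Cbx3 could also map, likewise held 0 peaks. How reads that map to several places were treated is not given, so this does not show where such reads went. The lowest log2 fold enrichment in the list was 3.001 and the lowest −log10 p 3.01, so weaker enrichment is not represented, and with the abundance of these mRNAs in the input unknown the lack of a peak does not show that they were unbound.

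The gene facing the promoter end of Cbx5 had weak peaks only. Hnrnpa1 held 2, at 3.15 and 3.02, both on the plus strand, and Smug1, a uracil-DNA glycosylase gene 22606 nt beyond the 3′ end of Cbx5, held 1 at 3.09. These were the peaks just outside the Cbx5 span, 4632 nt away on one side and 36331 nt on the other. Inside it, the peak nearest the 3′ end began 187 nt from that end and had 5.27, and the peak nearest the other end of the span was the 3.49 peak, 26651 nt from it. Cbx3 has a similar neighbour, Hnrnpa2b1, which faces it across 105 nt and held 0 peaks.

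Among other chromobox genes, those of the Polycomb group were measured from a list. Polycomb chromobox proteins carry a related chromodomain but act in Polycomb repression. Of the 4 genes reported, 2 had a peak of their own, Cbx2 with 5 and Cbx8 with 1, and Cbx7 had 0, where 7.7% of all coding genes had such a peak. Cbx2 reached a log2 fold enrichment of 4.38 at 119031093 to 119031246 on chromosome 11, and its peaks lay 105.5 to 1404 nt from the 3′ end. Cbx8, on the same chromosome, had 3.55.

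Cbx6 stood apart because its span is shared. It lies on chromosome 15 (79823898 to 79834333, minus strand) inside Npcd, annotated under the synonym Cbx6-Nptxr, and its 24 peaks, all on the minus strand, could not be given to 1 of these genes. They covered 1548 nt and were found 60 to 3702 nt before the end of Cbx6. The strongest, 5.23 or 37.5-fold, was at 79824684 to 79824698, and the median was 3.79, against 5.24 in Cbx5.

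Among genes that work with HP1, Dnmt3a alone held more than 1 peak. The list of methyltransferases that write the histone mark bound by HP1, with a cofactor (Suv39h1, Suv39h2, Setdb1, Setdb2, Ehmt1, Ehmt2 and Atf7ip), had a peak in 0 of 7 genes. Of 24 HP1 partners and heterochromatin proteins 4 had a peak. Dnmt3a, a DNA methyltransferase gene, held 36, up to 5.24, at 1002.5 to 6340 nt from its 3′ end. The other genes had 1 peak each near the lower limit of the list, the remodeller gene Hells at 3.06, the histone demethylase gene Kdm2a at 3.03 and Lbr, the lamin B receptor that binds HP1, at 3.01. Trim28, the corepressor that recruits HP1, Dnmt1, Atrx and Chaf1a were among those with 0. Over the 3 lists, 6 of 35 genes (17.1%) had a peak in a span of their own, beside 7.7% of all coding genes. With shared spans included the counts were 7 of 35 (20%) and 8.53% of coding genes. The strongest peak per gene had a median log2 fold enrichment of 3.31 over the 6 genes, below the 3.85 of all coding genes with peaks. With weaker peaks left out, 2 of the 35 genes (5.71%) had a peak of their own at or above a log2 fold enrichment of 4, beside 3.27% of all coding genes.

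**Figure D4:**
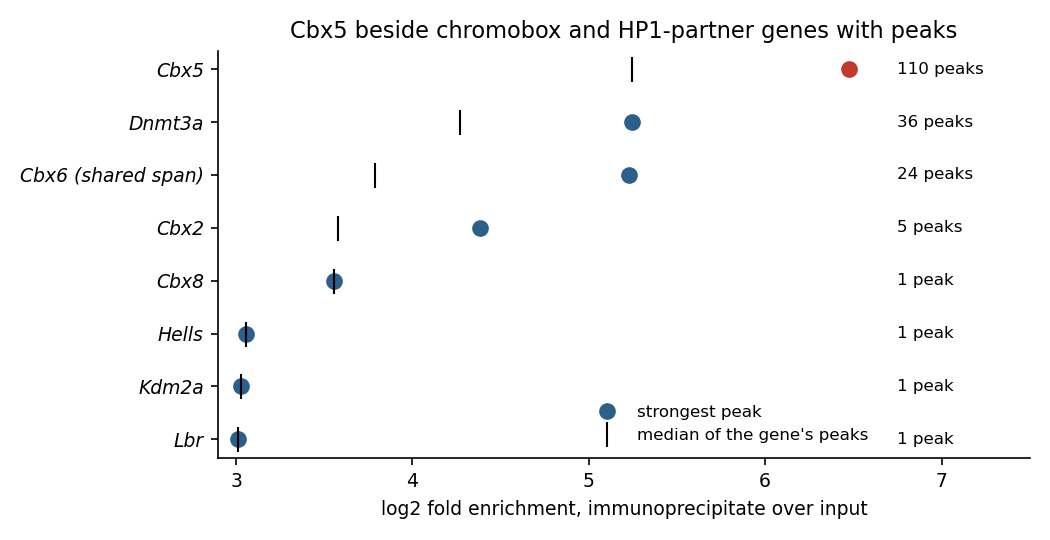
Dots give the log2 fold enrichment of the strongest peak and ticks the median over the gene's peaks, for Cbx5 (red) and for the 7 genes of the 3 lists with a peak in their span (blue), with the number of peaks at the right. Cbx5 reaches 6.48 with 110 peaks, Dnmt3a and Cbx6 reach 5.24 and 5.23, and Hells, Kdm2a and Lbr lie at 3.01 to 3.06.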

How the data were processed

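MOV10 eCLIP and input libraries, 2 each, were represented by 1 peak list that joins the replicates, per the name the authors gave it after an irreproducible discovery rate (IDR) step. Per the submitters' processing notes, the builds were mm10 and GRCm38.p6. Not given in the sources used here are aligner, peak caller and thresholds. The list has no header. The first of its value columns was taken as the −log10 p computed by the authors and the other as the deposited log2 fold enrichment of immunoprecipitate over input, from their ranges and the usual order of eCLIP peak files. If a reading is wrong, statements on strength change and those on position do not.

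Starts were converted to count from 1. Peaks were assigned by midpoint to RefSeq spans (GRCm38.p6) in Python 3.11.15 with pandas 2.3.3. Annotated strands came from the promoter table: of 8775 peaks in 1 coding gene with a listed strand, 99.9% lay on it. For other coding genes with peaks in a span of their own, distances took the strand of the gene's first peak. Distances run from peak midpoints to the annotated 3′ end, and edges where said. The functions were tested on simulated data. The members and lists were chosen with earlier results of these data known. Named were the members, list genes with a peak, neighbours and the 3 genes most like Cbx5 in profile. Genes of the lists with 0 peaks and the leading genes of each ranking were also named, after their values were seen. Alternatives varied the p, enrichment and width limits, merging, windows and bins. No exons or peak sequences were used here. A gene of the lists is not reported here and was left out of their counts.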

Additional observations from a re-analysis of the deposited data

How the results depend on the processing

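Of 48 alternative settings over 9 results, 39 left the value within 1.5 times the count, at the same rank, or inside the binomial interval of the share or median. The binomial intervals take peaks as independent, and some of the 39 settings could not have come out otherwise. Cbx1 and Cbx3 had 0 peaks under all that were run, but limits and merging cannot raise a count of 0. Counting any overlap with the span could add none either, as the closest peaks lay 8909 nt from Cbx1 and 2899750 nt from Cbx3. A −log10 p limit of 5 could remove no Cbx5 peak, as their lowest value was 20.9. The number of Cbx5 peaks, 110, became 67 with peaks of at least 20 nt, 53 with touching peaks merged and 35 with peaks within 10 nt merged. Cbx5 ranked 1 by number of peaks except with peaks of at least 20 nt, where it ranked 2 after Ttyh3. The share of Cbx5 peaks near the 3′ end, 60.9% at 5 kb, was 29.1% at 2 kb and 99.1% at 10 kb. List genes with a peak numbered 6, then 4 with a −log10 p of at least 5, and 2 when peaks below a log2 fold enrichment of 4 were left out. The 13 clusters of Cbx5 became 21 with gaps of 50 nt and 7 with gaps of 200 nt, settings chosen after seeing the data. With bins of 250 or 1000 nt, Pank3 took the place of Usp31 among the 3 genes most like Cbx5. Both bin settings and the list count of 4 are among the 39, although they lie just at the limit of 1.5 times. Leaving out a replicate could not be run on a joined list. No paired analysis was possible because the list gives 1 value per peak over all libraries. Read numbers per peak are unknown, so depth sets no stated error here.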

Other observations

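The −log10 p values of the list left a wide range empty. Over all peaks, 65 had a value from 75 to below 90, 8 from 90 up to 165, none between 165 and 400, and 84 stood at 400. In Cbx5 the numbers were 19, 3, 0 and 23. Within 1 run of touching Cbx5 peaks, a peak at 103198295 to 103198314 (20 nt, log2 fold enrichment 5.69) stood at 400, while its neighbours, with 5.84 over 41 nt and 5.54 over 14 nt, had 88.2 and 81.8. The same held for the peak at 103198329 to 103198350 (22 nt, 5.34), between neighbours at 81.8 and 81.4.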
